A study of Homo sapiens with 12 samples.

Results

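The cytosolic ribosomal protein genes encode the protein subunits of the large (RPL and RPLP names) and small (RPS names) ribosomal subunits. Their members were taken from the gene names that the authors' annotation gives to clusters of the endogenous QKI libraries, as names made of RPL or RPS plus digits and at most 1 letter of A, L, X or Y, together with RPLP0, RPLP1, RPLP2 and RPSA. RPS6K kinases and pseudogene names were left out. In all, 1296 of 616191 endogenous clusters carried such a name, 777 of 384347 in library 1 and 519 of 231844 in library 2. They belonged to 78 genes, 47 of the large and 31 of the small subunit, out of 81 protein-coding RefSeq symbols that match the rule. RPL10L and RPL3L had no cluster in either endogenous library, and the other libraries carry no gene names of their own.

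The clusters come from enhanced crosslinking and immunoprecipitation (eCLIP), in which RNA bound to a protein is fixed to it with UV light, pulled down and sequenced beside a size-matched input from the same cells. The protein was QKI (Quaking), an RNA-binding protein of the STAR family. The mutant group expressed myc-tagged QKI-5 carrying K120A and R124A (protein substitutions, counted in residues), and was pulled down with an anti-MYC antibody. The wild type group expressed unsubstituted myc-QKI-5 and was pulled down with the same antibody. The endogenous group was of unmodified cells and an anti-QKI antibody. Each of the 3 groups had 2 immunoprecipitation libraries and 2 inputs, 12 samples in all. Transfection was transient, with 10 µg of plasmid and 72 hours of culture, and no deletion of the cells' own QKI is named for the myc groups. All groups shared crosslinking at 254 nm and 400 mJ/cm2. The samples are labelled HEK293xT or HEK293T, an established human embryonic kidney line, whereas the series' design note speaks of stem cells turned into cardiomyocytes. Of genes used here as markers, 5 of 5 for HEK293-type cells had endogenous clusters (44 clusters in library 1 and 16 in library 2). Of the pluripotency markers 1 of 7 had any (DNMT3B, with 23 and 10), and POU5F1, NANOG, SOX2, LIN28A, DPPA4 and TDGF1 had none. Of the cardiomyocyte markers 3 of 6 had clusters (98 and 48), and TNNT2, MYH6 and MYH7 had none.

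Ribosomal proteins are made in large amounts in growing cells, from short, abundant, spliced mRNAs that begin with a run of pyrimidines, the 5′ terminal oligopyrimidine (TOP) motif, through which the mTOR pathway controls their translation. Many of these genes carry small nucleolar RNAs in their introns and have processed pseudogene copies elsewhere in the genome. QKI-5, the nuclear form of QKI, binds introns near exons and regulates alternative splicing, and other isoforms act on 3′ untranslated regions (UTRs) in the cytoplasm.

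Each cluster has the authors' log2 fold of immunoprecipitation over input and a −log10 p, and was called enriched where both were at least 3. The lists held between 226962 and 384347 clusters per library, and the depth of sequencing is not known from the files or labels. The 4 myc lists hold only clusters above input, so a myc cluster that is not listed was either not called or not above input, and levels below input can be read only in the endogenous libraries. Because pseudogene copies can share reads with the exons of these genes, and how such reads were treated is not stated by the labels or files, exon values are uncertain to that extent. Whether the paired libraries of a group stem from separate cultures is not stated in the labels, and every p-value therefore reflects the spread of these libraries alone, which can be of technical origin.

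The first comparison asked where on these transcripts endogenous QKI lay above or below its input. Ribosomal protein clusters lay mostly below it. Their median log2 fold was −2.20 in library 1 and −2.25 in library 2 (−2.23 ± 0.03, SD, n = 2), against 0.26 and 1.15 over all annotated clusters. Below input were 655 ribosomal protein clusters (84.3%) in library 1 and 405 (78.03%) in library 2, against 40.4% and 14.4% of all annotated clusters. The medians of the ribosomal protein genes were close in both libraries, while those of all clusters lay further apart. Cluster folds ran between −5.72 and 5.86 in library 1 and between −4.82 and 5.54 in library 2.

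The signal was divided between introns and exons. Intron clusters, splice sites included, had median log2 folds of 0.16 in library 1 and 0.30 in library 2. Exon clusters, on coding exons and UTRs, had medians of −2.44 and −2.70. Exon clusters made up 78.2% and 72.1% of the ribosomal protein clusters, against 10.2% and 10.8% of all annotated clusters. Intron minus exon was 2.61 and 3.002 (2.80 ± 0.28, SD, n = 2), against 1.00 and 1.17 (1.08 ± 0.12) over all annotated clusters. The difference had the same sign in both libraries and in both sets, and was larger for the ribosomal protein genes in each library. Among clusters with a −log10 p of at least 1, a filter that removes every cluster below input, it was 0.18.

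**Figure D1:**
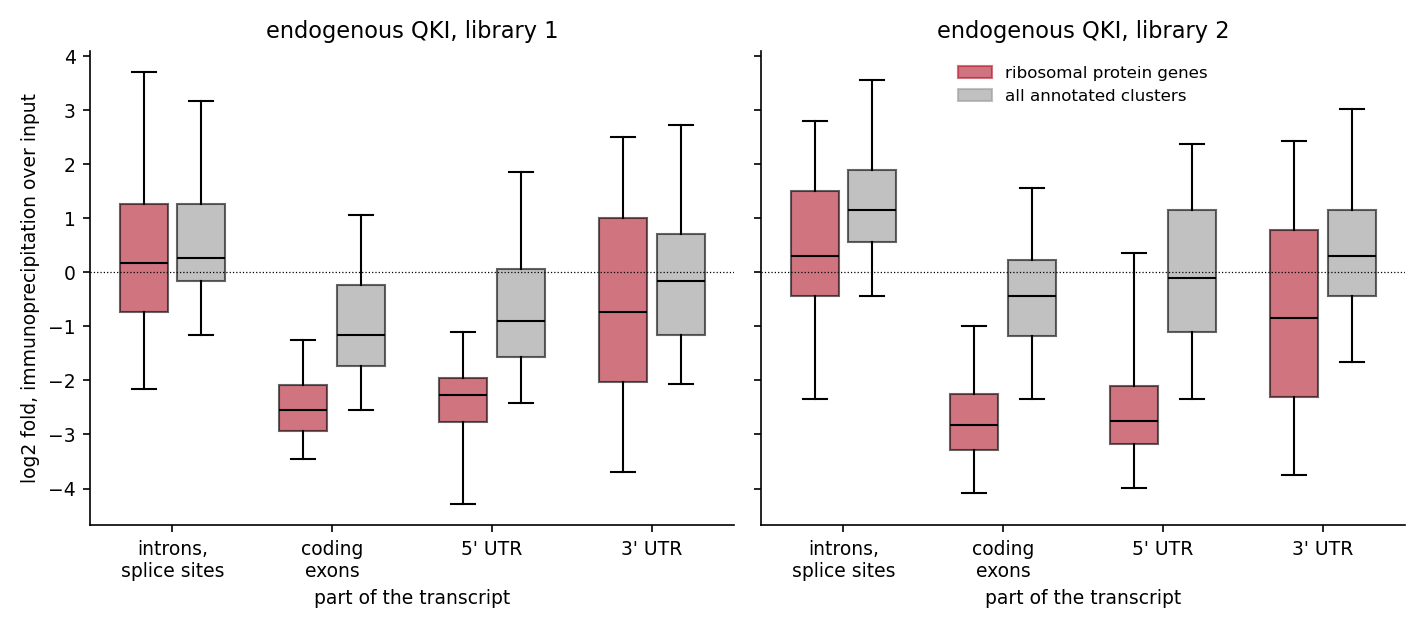
Log2 fold of endogenous QKI clusters over input (vertical axis) by part of the transcript, for ribosomal protein genes (red) and all annotated clusters (grey), 1 panel per library. Boxes span the quartiles with the median as a line, and whiskers the 5th to 95th percentiles. Coding exon medians of ribosomal protein genes were −2.55 and −2.83, far below those of all clusters at −1.16 and −0.44.

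Within exons, the coding part stood lowest. Coding exon clusters of ribosomal protein genes numbered 449 and 259, with medians of −2.55 and −2.83 against −1.16 and −0.44 over all coding exon clusters. The 91 and 59 clusters on 5′ UTRs had medians of −2.27 and −2.76 against −0.89 and −0.11. The 68 and 56 clusters on 3′ UTRs were less far down, at −0.74 and −0.84, against −0.16 and 0.30. In introns, the 49 and 50 clusters near splice sites had medians of 0.65 and 0.81, against 0.58 and 1.15 over all such clusters. The 79 and 57 distal intron clusters had medians of −0.16 and 0.56, against 0.26 and 1.15. At 5′ splice sites the 12 and 15 clusters had 0.46 and −1.67, against 0.26 and 1.15, and at 3′ splice sites the 19 and 11 clusters had 1.13 and −1.28, against 0.58 and 1.15. Medians on coding exons and UTRs lay below those of all clusters in both libraries, as did those in distal introns, and the other intron classes lay above in library 1 and below in library 2.

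The pattern held gene by gene in most cases. Exon clusters were found in 76 of the 78 genes, and the median over them was below 0 in 74. The exceptions were RPL31, with a median of 1.66 over 16 exon clusters, and RPL39L, a paralogue of RPL39 known from testis, with 0.65 over 2. Among 73 genes with exon clusters in both libraries, 70 had an exon median below 0 in each. Of 59 genes with both kinds of cluster, 52 had a higher median in introns than in exons. None of these counts by gene was made for other genes. Over all annotated clusters the intron median was also above the exon median, by 1.00 in library 1 and 1.17 in library 2.

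**Figure D2:**
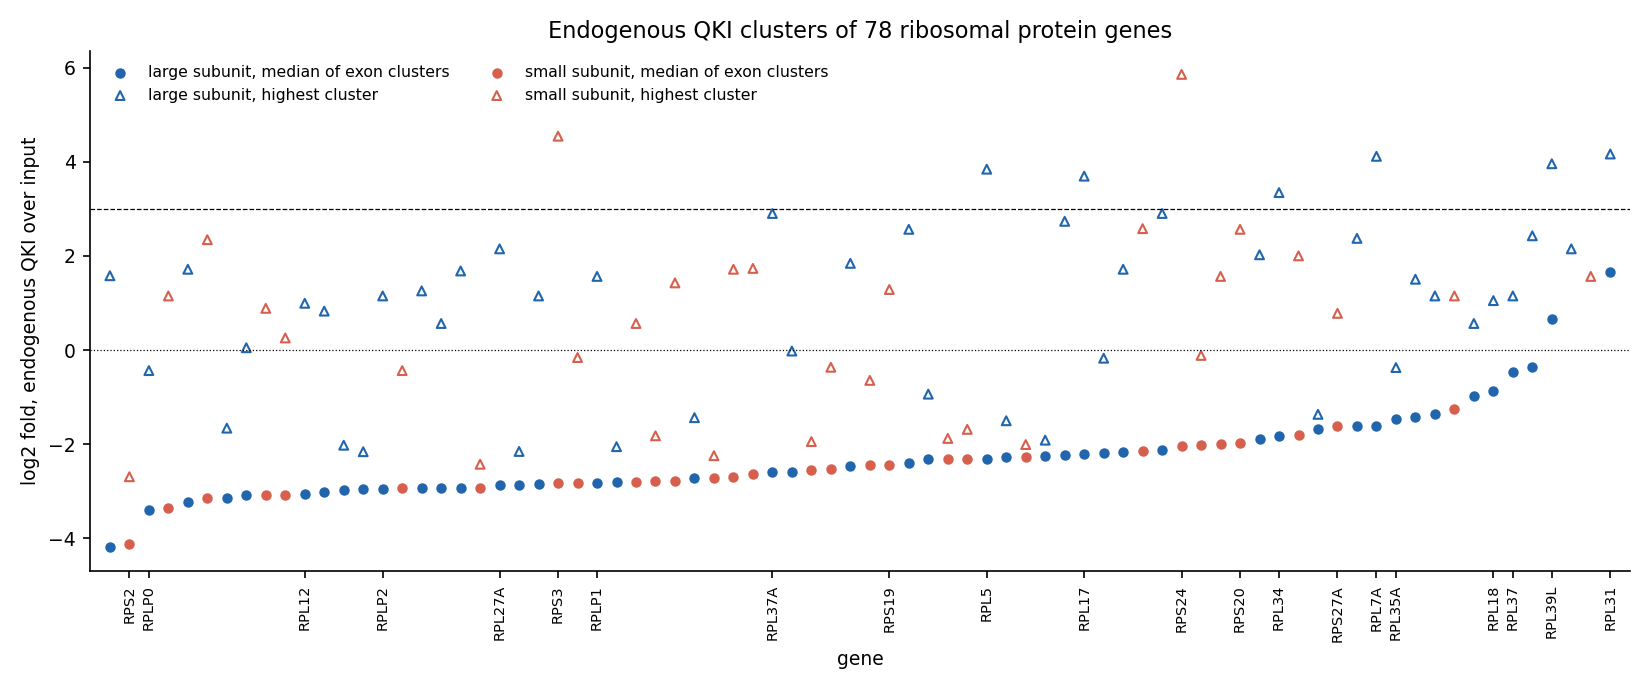
The 78 ribosomal protein genes along the horizontal axis, of which the leading ones are labelled, ordered by the median log2 fold over input of its exon clusters in endogenous QKI libraries (filled circles, both libraries pooled), with its highest cluster as an open triangle. Blue marks the large and red the small subunit, the dotted line is the level of input and the dashed line a log2 fold of 3. Exon medians lay below 0 for 74 of 76 genes, and the highest triangle, at 5.86, belongs to RPS24.

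Regions made by merging clusters of both libraries were tested against input with limma over the whole table of 102289 regions found in both. Of all regions 63.6% were called at an adjusted p of at most 0.05, with 60.7% higher and 2.88% lower than input. Of 337 regions in 74 ribosomal protein genes, 32 were higher and 262 lower than input. Their median log2 fold was −2.46, against 1.496 over all regions. RPSA, RPL39 and RPL13A had clusters but no region found in both libraries. Lower regions only were found in 52 genes, regions of both directions in 19, and a higher region only in RPL39L, while RPL21 and RPL37 had none that passed. The same count by gene was not made for other genes. Over the 337 regions the 2 libraries had a Pearson correlation of 0.92, given as a description of libraries that share their annotation and cluster calls. When each library was centred on its own median, which brings the median of all regions to 0, 5 ribosomal protein regions were higher and 286 lower.

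Both subunits showed this. In the large subunit 21 of 201 regions were higher and 149 lower, with a median of −2.41. In the small subunit 11 of 136 were higher and 113 lower, with a median of −2.47. The stalk, the flexible arm of the large subunit that recruits translation factors, had the lowest median. All 14 regions of its genes were lower than input, with a median log2 fold of −3.09. They all lay on coding exons or UTRs, where 250 of 280 ribosomal protein regions were lower, with a median of −2.58. RPLP0, the base of the stalk, had 7 regions, and the lowest of them lay on a coding exon (hg19 chromosome 12, 120634705 to 120634738, minus strand). It had a log2 fold of −3.97 in library 1 and −4.34 in library 2 (mean −4.15, SE 0.55, adjusted p = 1.3e-12 by limma). RPLP1 and RPLP2, which form dimers on that base, had 3 and 4 regions, with means between −3.18 and −1.25 for RPLP1 and between −3.26 and −2.27 for RPLP2. Every stalk region lay below input in both libraries.

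Other regions reached lower still. The region with the lowest mean, in RPL12, a protein at the stalk's foot, had log2 folds of −5.26 and −5.78 (hg19 chromosome 9, 130210779 to 130210917, minus strand). It also held clusters named for the small nucleolar RNA SNORA65, which gave its values, and the RPL12 cluster in it had −5.72 in library 1 and no counterpart in library 2. It was the single region of the 337 whose values came from a cluster with another name. A 5′ UTR region of RPL27A, a large subunit protein, had −4.74 and −4.82 (chromosome 11, 8705772 to 8705906, plus strand, mean −4.78, SE 0.55, adjusted p = 2.6e-16 by limma). A 3′ UTR region of RPS2, a small subunit protein, had −4.08 and −4.33 (chromosome 16, 2012333 to 2012468, minus strand, mean −4.21, SE 0.55, adjusted p = 6.7e-13). Both libraries were low at each of these places.

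By part of the transcript, 0 of 194 coding exon regions were higher than input by limma and 184 were lower, against 385 higher and 1112 lower of 2722 coding exon regions in all genes. At an unadjusted limma p under 0.05 no coding exon or 5′ UTR region was higher either. A coding exon region of RPL18 had log2 folds of 1.05 and 0.96, with −log10 p of 10.5 and 5.24 by the authors, and was not called by limma. On 5′ UTRs 0 of 56 were higher and 52 lower, against 200 and 349 of 972. On 3′ UTRs 8 of 30 were higher and 14 lower, against 2011 and 677 of 5884. The 8 higher ones lay in RPL31 and RPS20, with 2 each, and in RPS3A, RPL26, RPL28 and RPL38. In introns 23 of 52 were higher and 8 lower, against 54727 and 376 of 84235. Of the 8 lower intron regions 6 lay on 3′ splice sites, in RPS15, RPS25, RPL37A, RPL10, RPS3A and RPL27. The lower regions were thus mainly on coding exons and 5′ UTRs.

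The 5′ end is where the TOP motif lies, and the annotated starts of genes that recur in these results are shown for that reason. Each sequence runs from 10 bases before to 20 bases from the RefSeq transcription start, read on the strand of transcription from RefSeq's GRCh38.p14. Capitals mark a TOP-like run, searched for on that strand only as a C followed by at least 4 bases that are each C or T. The coordinates are of GRCh38.p14 and are not those of the hg19 clusters.
RPS24 (chr10:78033853-78033882, plus strand): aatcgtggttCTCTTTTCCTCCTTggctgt
RPL31 (chr2:101002279-101002308, plus strand): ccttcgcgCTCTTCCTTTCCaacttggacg
RPL34 (chr4:108620566-108620595, plus strand): CTTTTTTCTTCCTCTTCCggggacgttgtc
RPL7A (chr9:133348208-133348237, plus strand): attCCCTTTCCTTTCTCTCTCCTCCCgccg
RPS3 (chr11:75399508-75399537, plus strand): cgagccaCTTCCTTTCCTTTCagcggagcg
RPL17 (chr18:49492446-49492475, minus strand): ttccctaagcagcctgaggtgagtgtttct

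Such a run began within 10 bases of the annotated start in 57 of 64 ribosomal protein genes with a sequence in the table (89.1%), against 24 of 69 mitochondrial ribosomal protein genes (34.8%) and 6506 of 15843 protein-coding genes (41.1%). Exactly at the start it was found in 46 of 64 (71.9%), against 6 of 69 (8.70%) and 988 of 15843 (6.24%). The run is a feature of the sequence alone, and the one window printed here without it, of RPL17, shows only that these letters are not next to the start annotated for that gene.

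Exon regions of other mRNAs of translation were also mostly lower than input. In a list of translation factors and other known TOP mRNAs, 9 of 115 exon regions were higher and 95 lower, with a median of −2.25, against 8 higher and 250 lower of 280 and a median of −2.58 for the ribosomal protein genes. Exon regions of ribosome assembly genes were higher in 1 and lower in 19 of 30 (median −1.55). Those of mitochondrial ribosomal protein genes, which serve the separate ribosome of mitochondria, were higher in 6 and lower in 13 of 40 (median −0.70). Over all genes 2596 of 9578 exon regions were higher and 2138 lower, with a median of 0.07. In introns, 23 of 52 regions were higher and 8 lower for ribosomal protein genes, against 80 higher and 1 lower of 122 for translation genes. For assembly genes 55 were higher and 1 lower of 89, and for mitochondrial ribosomal protein genes 121 were higher and 2 lower of 191. No difference between lists was tested.

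Against this background a small number of places lay far above input, mostly in introns. Enriched were 15 of 777 ribosomal protein clusters in endogenous library 1 (1.93%, 95% exact interval 1.08 to 3.16) and 7 of 519 in library 2 (1.35%, 0.54 to 2.76). Of all annotated clusters 4.22% and 5.39% were enriched in the same libraries. Among intron clusters 14 of 159 (8.81%) and 5 of 133 (3.76%) were enriched, against 4.49% and 5.76% of all intron clusters, so that the share lay above that of all introns in one library and below it in the other. Among exon clusters 1 and 2 were enriched. These intervals cover counting error only.

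Over all 6 libraries the enriched clusters fell into 18 loci of 13 genes, 14 in introns or on splice sites, 3 on 3′ UTRs and 1 on a coding exon. An endogenous library was enriched at 10 of them and both were at 5, in RPS24, RPL31, RPL39L, RPL17 and RPL7A. A wild type library was enriched at 12 and both were at 7. At 4 loci a wild type and an endogenous library were enriched together. None of the 18 loci was enriched in a mutant library, where 0.136% and 0.452% of all annotated clusters were. Myc clusters inside these genes that overlap no endogenous cluster could not enter the 18 loci. Of such clusters 3 were enriched in mutant library 2, 1 in wild type library 1 and 2 in wild type library 2.

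RPS24, a small subunit protein whose gene is mutated in some patients with Diamond-Blackfan anaemia and whose pre-mRNA is alternatively spliced near its 3′ end, had the highest folds. Its peak lay in and beside an intron (hg19 chromosome 10, region 79799939 to 79800456, plus strand). In endogenous library 1 the clusters between 79800053 and 79800322 had log2 folds of 5.63, 4.86, 3.40, 5.86 and 4.75 in order along the transcript. In endogenous library 2 the clusters from 79800070 to 79800186 and from 79800187 to 79800220 had 4.40 and 5.54. The high clusters were annotated to the intron and its splice sites. The clusters annotated as 3′ UTR beside it in library 1 had −0.54, −0.54, −0.26 and −0.41.

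Wild type QKI-5 marked the same intron with clusters at 2.56 and 3.06 in library 1 and at 3.005 and 5.76 in library 2. The mutant listed no cluster between its own clusters ending at 79799984 and starting at 79800372. These flanking clusters reached 0.41 in library 1 and 0.42 in library 2. Upstream, 4 further intron regions of RPS24 were higher than input in the endogenous libraries, with means between 1.31 and 2.60, while its 5′ UTR region and 2 coding exon regions were lower, at −2.17, −2.30 and −2.39. Taking the cluster with the highest −log10 p of each library, the whole peak had 5.86 and 2.03 (mean 3.94, SE 0.55, adjusted p = 1.8e-11 by limma).

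**Figure D3:**
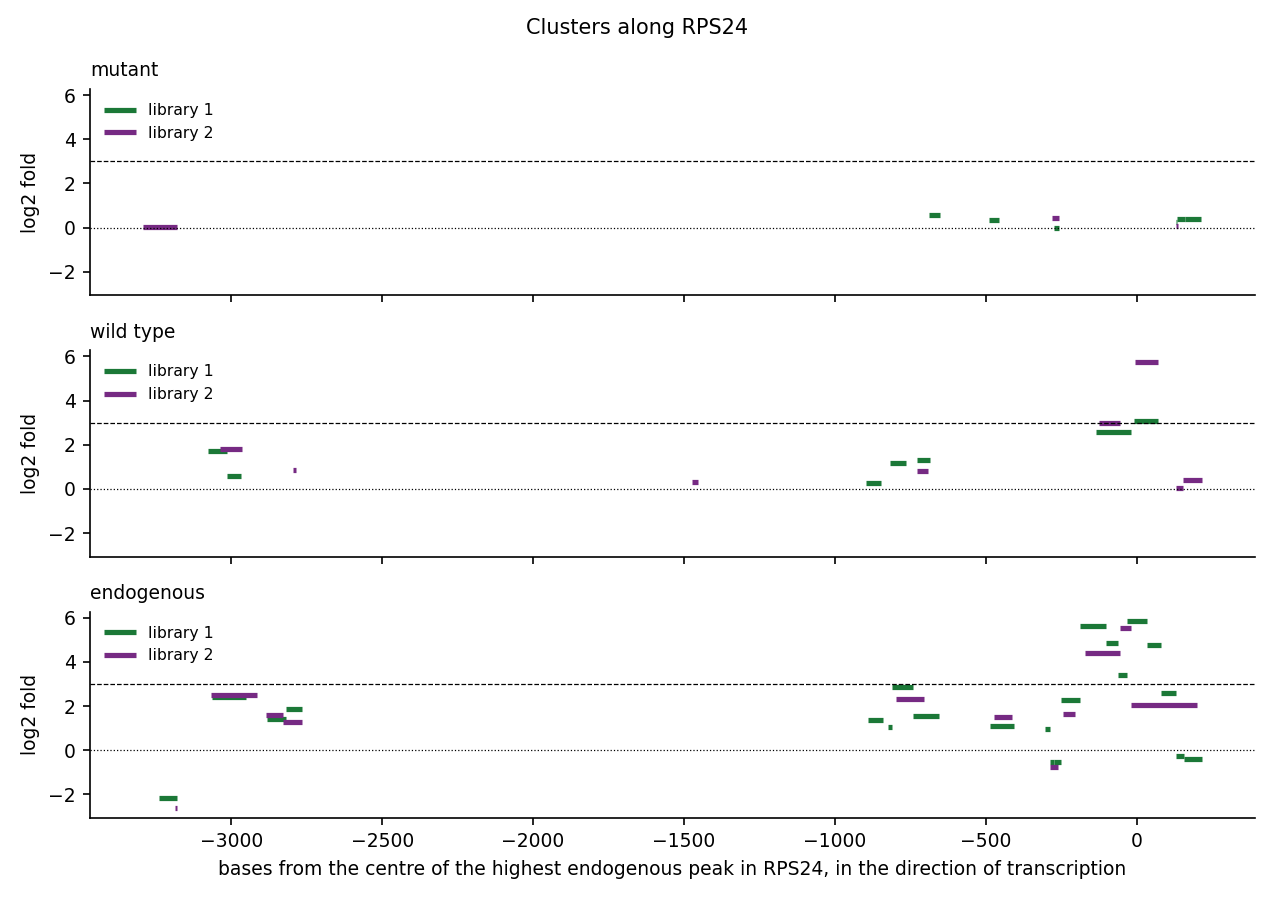
Clusters along RPS24 in mutant, wild type and endogenous libraries (3 panels, libraries 1 and 2 in green and purple), each drawn as a bar at its log2 fold over input (vertical axis) against the distance in bases from the centre of the highest endogenous peak. Dotted lines mark input and dashed lines a log2 fold of 3. Endogenous bars at the centre reach 5.86 and 5.54 and wild type bars 3.06 and 5.76, and the mutant bars drawn reach at most 0.55.

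RPL31, a large subunit protein, had an exon median above input, at 1.66. Of its 7 tested regions 5 were higher and 1 lower. The highest, on a 3′ UTR (chromosome 2, 101634583 to 101634725, plus strand), had log2 folds of 4.16 and 3.37 in the endogenous libraries (mean 3.77, SE 0.55, adjusted p = 1.4e-10 by limma). At the same locus wild type had 4.08 and 3.73, and the mutant listed none. A distal intron locus from 101638999 to 101639124 had 4.08 and 4.23 in wild type, with 4.09 and 2.42 in endogenous libraries. A 3′ UTR locus from 101622064 to 101622251 had 1.24 and 2.37 in wild type, with 2.84 and 3.52 in endogenous libraries. The 5 enriched loci of RPL31 had a cluster in each of the 4 wild type and endogenous libraries and in no mutant library.

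In RPL17, whose protein lines the exit tunnel of the ribosome, a locus in an intron near a splice site (chromosome 18, 47015500 to 47015679, minus strand) had 3.68 and 3.69 in the endogenous libraries (mean 3.69, SE 0.55, adjusted p = 3.5e-10 by limma) and no cluster in any myc library. The same merged region held clusters named for the intronic small nucleolar RNA SNORD58C, at −3.55, −3.38 and −3.73 in library 1 and −2.52 in library 2. With the length-weighted mean of all its clusters the region had 0.39 and an adjusted p of 0.53, which ends the call. Its clusters also carry the name of the RPL17-C18orf32 readthrough transcript. A distal intron locus of RPL39L (chromosome 3, 186854272 to 186854446, minus strand) had 3.50 and 2.90 in wild type, with 3.39 and 3.96 in endogenous libraries. In RPL7A, a large subunit protein and small nucleolar RNA host, a locus on a 5′ splice site (chromosome 9, 136217956 to 136218131, plus strand) had 3.40 and 3.13 in endogenous libraries and no cluster in any myc library. RPL17 and RPL7A were the 2 of the 18 loci with no wild type cluster.

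Further loci were enriched in wild type or in one endogenous library. In RPL5, which carries the 5S RNA into the ribosome with RPL11, an intron locus (chromosome 1, 93306568 to 93306622, plus strand) had 4.02 and 4.41 in wild type, with 3.84 and 2.47 in endogenous libraries. In RPL34 a 3′ splice site (chromosome 4, 109543570 to 109543645, plus strand) had 3.84 and 3.87 in wild type, with 3.34 and 2.47 in endogenous libraries. A distal intron locus of RPS3, which lines the mRNA entry channel (chromosome 11, 75128099 to 75128318, plus strand), had 3.22 and 2.96 in wild type, with 4.54 and 2.61 in endogenous libraries. At these places all 4 libraries had at least 2.47, and the mutant listed none.

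A 3′ UTR locus of RPS20 (chromosome 8, 56980371 to 56980585, minus strand) had 4.90 and 4.27 in wild type, above both endogenous values of 1.58 and 2.56. A distal intron locus of RPL37A had highest folds of 3.804 and 3.14 in wild type, against 1.06 and 1.15 in endogenous libraries. The wild type and endogenous groups differ in antibody and in transfection, which cannot be told apart from the protein pulled down, and the differences at these loci were not tested. The coding exon locus was in RPL23A (chromosome 17, 27050700 to 27050893, plus strand), with 1.13 in mutant library 1, 3.32 and 2.96 in wild type, beside 2.37 and −0.49 in the endogenous libraries. Its enriched wild type cluster took a coding exon label, whereas the same interval counted as a 3′ UTR region in the endogenous test. RPL23A and RPS24 were the 2 loci listed in a mutant library.

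The genes with the most endogenous clusters over both libraries were RPL37A with 41, RPS24 with 38, RPS19 with 35, RPL18 and RPS3 with 34 each, and RPL31 with 31. In RPL37A the 30 intron clusters had a median of 0.41 and the 11 exon clusters −2.60. Its tested regions comprised 4 higher than input, all in introns, and 4 lower, on 3 coding exons and a 3′ splice site. RPS19, the gene most often mutated in Diamond-Blackfan anaemia, had an intron median of −0.11 over 19 clusters and an exon median of −2.44 over 16. RPS3 had an intron median of 1.23 over 8 clusters and an exon median of −2.83 over 26. RPL18 had 34 exon clusters and no intron cluster. Its exon median of −0.86 was nearer to input, and 1 of its 7 regions passed, below input.

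The genes mutated in Diamond-Blackfan anaemia, a failure of red cell formation, had 88 regions in 17 genes, of which 15 were higher and 54 lower than input, with a median of −1.79. RPS24 and RPL31 held 10 of the 15 higher regions. The rest lay in RPS19, RPS10, RPL26, RPL15 and RPL5, with 1 each.

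The second comparison asked how the substitutions changed what the tagged protein pulled down. Of the ribosomal protein clusters listed above input, 0 of 126 and 0 of 448 were enriched in the mutant, which allows shares of up to 2.89% and 0.82% (upper bounds of 95% exact intervals). Clusters that lie inside these genes but overlap no endogenous cluster are not in these counts, and 3 of them were enriched in mutant library 2, in RPL6, RPL36A and RPS9. In wild type 9 of 154 (5.84%, 2.71 to 10.8) and 12 of 145 (8.28%, 4.35 to 14.01) were. Of all annotated clusters 0.136% and 0.452% were enriched in the mutant, against 5.00% and 4.97% in wild type. Both wild type libraries held more enriched ribosomal protein clusters than both mutant libraries, at 10.5 ± 2.12 on average against none (SD, n = 2 each), and a two-sided exact permutation test gave p = 0.333, the lowest value possible with 2 libraries against 2. How much mutant and wild type protein the cells made, or the antibody recovered, was not analysed here.

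The numbers of ribosomal protein clusters listed overlapped between the groups. The mutant had 126 in library 1 and 448 in library 2 (287 ± 228, SD, n = 2), against 154 and 145 (149.5 ± 6.36) in wild type. Mutant library 2 was above both wild type libraries and mutant library 1 below both (exact permutation p = 1). As a share of annotated clusters they made up 0.276% and 0.843% in the mutant, against 0.171% and 0.152% in wild type, without overlap (exact permutation p = 0.333). That share depends on its denominator, since 19.7% and 19.5% of listed mutant clusters were annotated, against 39.7% and 34.9% in wild type. All listed clusters numbered 231814 and 272728 in the mutant, against 226962 and 273269 in wild type. As a share of these, mutant library 1 lay between the wild type libraries, so the groups overlapped. The ribosomal protein clusters came from 45 and 71 genes in the mutant and from 44 in each wild type library. RPL19 and RPL4, named here after their values were seen, had 1 and 0 clusters in mutant library 1, 12 and 10 in mutant library 2 and none in wild type.

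These mutant clusters were mainly on exons and close to input. Exon clusters numbered 95 and 407 in the mutant, or 75.4% and 90.8% of its ribosomal protein clusters, against 90 and 80, or 58.4% and 55.2%, in wild type (exact permutation p = 0.333). Over all annotated clusters exons made up 17.4% and 19.3% in the mutant, against 10.2% and 9.19% in wild type. Intron clusters numbered 30 and 39 in the mutant, against 60 and 58 in wild type, and did not overlap between the groups. All annotated clusters numbered 45578 and 53128 in the mutant, against 90013 and 95243 in wild type, of which introns made up 72.6% and 69.9% in the mutant, against 81.6% and 82.9% in wild type. Coding exons held 67 and 312 clusters in the mutant, against 48 and 44 in wild type.

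**Figure D4:**
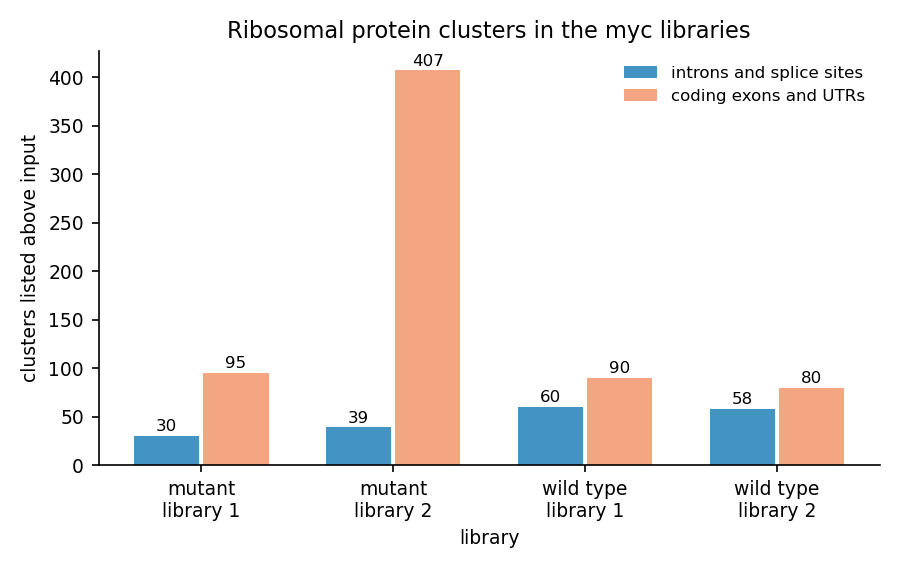
Number of ribosomal protein clusters listed above input (vertical axis, from 0) in the 2 mutant and 2 wild type libraries, with introns and splice sites in blue and coding exons and UTRs in orange. Exon clusters number 95 and 407 in the mutant, against 90 and 80 in wild type, and intron clusters 30 and 39 in the mutant, against 60 and 58 in wild type.

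The level of the listed clusters was lower in the mutant. Their median log2 fold was 0.26 and 0.49 in the mutant, against 0.67 and 0.82 in wild type. In introns it was 0.52 and 0.74 in the mutant, against 1.00 and 1.45 in wild type, and in exons 0.24 and 0.48 in the mutant, against 0.38 and 0.53 in wild type. The exon medians of the groups overlapped, and the intron medians did not. Over all annotated clusters intron medians were 0.74 and 0.91 in the mutant, against 1.41 and 1.22 in wild type, also without overlap. All annotated clusters had medians of 0.65 and 0.88 in the mutant, against 1.24 and 1.14 in wild type. The ribosomal protein median minus that of all clusters was −0.39 and −0.39 in the mutant. In wild type it was −0.57 and −0.32, so on this measure the groups overlapped. Only clusters above input enter any of these medians.

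Region by region, 5481 regions had a cluster in all 4 myc libraries, and limma called 37 of them (0.675%), 36 higher (0.657%) and 1 lower (0.0182%) in wild type. All differences are given as wild type minus mutant. Of the 12 ribosomal protein regions among them 0 passed, 0 had an unadjusted p under 0.05, and 0 passed with the replicate number as a block. The largest difference was on a coding exon of RPL35A, a large subunit protein (chromosome 3, 197680873 to 197681020, plus strand). It had 0.15 and 0.40 in the mutant, against 1.00 and 1.76 in wild type, a difference of 1.10 (SE 0.51, adjusted p = 0.435 by limma). A second RPL35A coding exon region (197678029 to 197678184) had 0.69 and 0.69 in the mutant, against 1.63 and 1.52 in wild type, a difference of 0.89 (SE 0.47, adjusted p = 0.480). A coding exon region of RPS27A, which is translated as a fusion with ubiquitin, had 0.61 and 0.62 in the mutant, against 1.85 and 1.05 in wild type, a difference of 0.84 (SE 0.51, adjusted p = 0.533). In the other direction, a 3′ UTR region of RPL37 had 1.38 and 1.11 in the mutant, against 0.34 and 0.25 in wild type, a difference of −0.95 (SE 0.48, adjusted p = 0.458). These 4 were named because their differences were the largest of the 12, and none of the differences passed the test.

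The loci enriched in wild type were not among these 12 regions because at least 1 mutant library lists no cluster there, and RPS24 was not among them because its wild type and mutant clusters did not merge into 1 region. With an unlisted cluster set to a log2 fold of 0, 173 ribosomal protein regions could be tested, of which 20 were higher and 1 lower in wild type, where 6.96% of 169063 regions were called, 6.42% higher and 0.534% lower. The 20 included the loci of RPS20 (4.59), RPL5 (4.21), RPL31 (4.15 and 3.90), RPL34 (3.85), RPL39L (3.20), RPS3 (3.09) and RPS24 (2.78 and 1.76), as wild type minus mutant. Their adjusted p by limma lay between 0.041 and 0.049 in all 21 cases. In these 20 regions both mutant values are zeros put in for unlisted clusters, which have no spread of their own. The size of each difference is therefore that of the wild type clusters. Regions listed in a single myc library were left out of this fit. The 20 thus entered through the wild type libraries alone, which fixed their direction, and the calls are no test of it. The region lower in wild type was a 5′ splice site of RPL36, with 1.74 and 1.69 in the mutant and no wild type cluster. Its direction was fixed in the same way.

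The authors' reproducible peak lists, 1 per group, hold pooled values of a pair of libraries and so have no replicate error. The peaks took gene names from overlapping endogenous clusters, so a peak without such an overlap could not count as a member. Ribosomal protein genes held 0 of 55 mutant peaks, which allows up to 6.49%, 6 of 3671 wild type peaks (0.163%) and 13 of 12409 endogenous peaks (0.105%). With 55 peaks and shares this small, the 0 does not set the mutant apart from the other groups. The 6 wild type peaks lay in RPS20, RPS24, RPL31 (2 peaks), RPL5 and RPL34, and 3 of the 6 (2 in RPL31 and 1 in RPS24) overlapped an endogenous peak. The 13 endogenous peaks lay in RPS24 (5), RPL31 (3), RPL7A (2), RPL39L, RPL17 and RPS3, and 4 of the 13 overlapped a wild type peak. The authors' log2 folds for the pair were highest at RPS24, with 6.02 for the leading endogenous peak (79800209 to 79800275) and 4.42 for the wild type peak there (79800232 to 79800310).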

How the data were processed

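The 6 immunoprecipitation libraries of 12 samples were analysed, 2 per group, grouped by their titles, and the 6 inputs entered through the authors' folds. Per the submitters' processing notes, the tools were cutadapt, UMI-tools, SAMtools and STAR, and the build was hg19. Versions, the peak caller and the read depth are not given in the labels or files, so precision could not be derived from counts. The deposited values are the authors' log2 fold of immunoprecipitation over size-matched input. The authors also deposited a −log10 p for each cluster, capped at 400, which is 0 for every endogenous cluster below input.

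Myc clusters took the name and transcript part of whichever same-strand endogenous cluster they overlapped most (at least 1 base, bedtools 2.31.1), and coordinates are 1-based hg19. Clusters that overlap or touch were merged into 476866 endogenous and 778449 myc regions, each library giving the value of its cluster with the highest −log10 p. Regions found in all libraries concerned were fitted over the whole table with limma 3.58.1 (R 4.3.3; lmFit and eBayes), adjusted by Benjamini-Hochberg, after a test on simulated data. In the endogenous fit limma estimated 1 spread for all regions, so the standard error is shared. Other values used Python 3.11.15, pandas 2.3.3 and SciPy 1.17.1, and shares have exact Clopper-Pearson intervals at 95%. Same-numbered wild type and mutant libraries did not deviate together (Pearson correlation −0.04 over 5481 regions), so the numbers were not used as pairs. Members and lists were chosen with earlier results of these data known. Genes named are those of the leading enriched and lowest endogenous regions, of the authors' reproducible peaks, with the most clusters, of the stalk, with the largest wild type minus mutant differences, and any described as chosen later, with some genes not reported here by name. Alternatives covered the value of a region, filters, centring, spread, naming, thresholds, the replicate block and each library left out.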

Additional observations from a re-analysis of the deposited data

How the results depend on the processing

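Of 337 ribosomal protein regions in endogenous libraries, 294 were called against input, 32 higher and 262 lower. The calls numbered between 282 and 293 under 5 alternatives. These were the length-weighted mean, centring, robust eBayes, 1 name per cluster (282 of 323 regions) and values from clusters with the gene's own name. The last was added after the data were seen. With centring only 5 calls were higher and 286 were lower. Under the rest between 28 and 32 were higher and between 253 and 265 lower. Requiring a −log10 p of at least 3 left 15 regions, of which 14 were called, all higher, since the authors' −log10 p is 0 below input. A spread shared by all 6 libraries left 9 regions, of which 7 were called, 2 higher and 5 lower. Without a replicate this fit has no test. Of the wild type minus mutant regions 0 passed, and 0 passed without each library in turn or with the replicate block. The exceptions were 21 with unlisted clusters set to 0, where the listing of clusters fixed the direction, and 1 with the shared spread. The latter was RPS24 (4.001, SE 1.02, limma adjusted p = 0.030), whose clusters merge into 1 region only when the endogenous ones are included. Enriched clusters per library at a log2 fold of at least 2 averaged 0.5 in mutant, 19.5 in wild type and 18 in endogenous, and at least 4 gave 4.5 in wild type and 5 in endogenous. Leaving out a library gave 0 to 0 in mutant, 9 to 12 in wild type and 7 to 15 in endogenous, the last without replicate 1 and replicate 2 of that group. The median log2 fold was 2.98 with clusters at a −log10 p of at least 3, which drops all those below input, −2.29 as a median over genes, and −2.25 to −2.20 leaving out a library. Intron minus exon was 0.18 when −log10 p had to reach 1, and 2.61 to 3.002 leaving out a library. Depth is unknown, low folds take few distinct values, and 2 libraries per group limit every test.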

Other observations

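Small nucleolar RNAs hosted within the ribosomal protein genes, which guide the modification of ribosomal RNA and are processed from introns, carry their own names in the authors' annotation and so were no members. In the endogenous libraries 68 and 50 clusters named for 38 and 37 of them lay inside 24 of these genes, and all of them were below input, with median log2 folds of −3.66 and −3.96 and ranges of −5.72 to −1.11 and −5.78 to −0.24. Of all annotated clusters 40.4% and 14.4% were below input in the same libraries. In the myc libraries, which list only clusters above input, 22 and 22 clusters with such names were listed in the mutant, against 6 and 2 in wild type. Annotated clusters of all kinds numbered 45578 and 53128 in the mutant, against 90013 and 95243 in wild type. The highest log2 folds of the small nucleolar RNA clusters were 1.79 and 1.49 in the mutant, against 0.24 and 0.63 in wild type, and none was enriched. The highest value of mutant library 1 was on SNORD72 in RPL37. This set was formed after the data were seen and was not tested. Small nucleolar RNAs outside these genes were not counted, so these values are not shown to be particular to the ones hosted here.

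Some myc clusters lay within the span of a ribosomal protein gene where no endogenous cluster gave them a name. There were 119 and 147 of them in the mutant, against 101 and 139 in wild type. Of these 0 and 3 were enriched in the mutant, in RPL6, RPL36A and RPS9 at log2 folds of 3.01, 3.04 and 4.01, each in library 2 alone. In wild type 1 and 2 were enriched, in RPL34 at 3.87 in library 1 and in RPL27A and RPS27L at 3.14 and 3.76 in library 2. None of these 6 was enriched in both libraries of its group.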
